A study of Homo sapiens with 16 samples.

Results

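Histone proteins carry methyl and acetyl groups on their tails, and the 57 genes described here encode enzymes that add methyl groups, take them off again, or remove acetyl groups. They were taken from the array annotation by name: every symbol that begins with KDM, KMT, SETD, HDAC or SIRT and a number, together with SETDB1, SETDB2 and the NSD genes, without antisense transcripts, pseudogenes and 1 Y-linked gene. They make up 57 of the 19735 genes that the annotation names on the array, and comprise 18 deacetylases, 22 genes of methyltransferase families and 17 of demethylase families. The choice of genes uses no measured value. Where the array reads a gene more than once, the reading with the highest mean level across these lines was used. Some family members carry the name without histone activity being their main role, such as SETD3, which methylates actin.

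Total RNA came from 16 established human T-ALL lines, where T-ALL stands for acute lymphoblastic leukemia of the T lineage: ALL-SIL, CCRF-CEM, DU528, HSB-2, JURKAT, KOPT-K1, LOUCY, MOLT-16, MOLT-4, P12-ICHIKAWA, PEER, PF-382, SKW-3, SUP-T11, SUP-T13 and TALL-1. Each was harvested untreated after 24 hours in serum-supplemented RPMI-1640 medium and hybridised to 1 Affymetrix U133 Plus 2.0 array, on which a gene is read by 1 or more probe sets. There was 1 group and no control, and each line stands for the leukemia of a single patient grown in culture. With 1 array per line no value has a replicate error: every SD below is the spread between different lines, and a difference between lines cannot be told apart from a difference between cultures or arrays.

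Histone methylation marks both active and silent chromatin. SET-domain enzymes write it, and the flavin-dependent KDM1 enzymes and the iron-dependent Jumonji enzymes erase it. Histone deacetylases of the HDAC family use zinc and the sirtuins use the cofactor NAD+, and class I HDACs act inside corepressor complexes. Several of these genes are altered in acute leukemias, among them KMT2A by rearrangement and KDM6A and SETD2 by loss-of-function mutation, and deacetylase inhibitors are used against T-cell lymphomas.

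Levels are given as deposited probe set intensities on a linear scale, on which the median of all values in the table was 42.4. SDs and slopes are on the scale log2(intensity + 16). Intensities of different probe sets depend on their sequences, so each gene is compared with itself across lines and not with another gene. No detection call was used here, and differences among values below the table median are not read as an order. In a culture, fewer cells expressing a gene and less RNA per cell cannot be told apart.

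Most of the enzymes were read clearly in every line. A mark of 4 times the table median, 169, was exceeded in all 16 lines by 37 members, in some lines by 17 and in no line by 3 (HDAC10, HDAC11 and SIRT4). Of all 19735 genes, 45.0% stayed at or below it in every line, against 5.26% of the members. The SD between lines was above 0.5 in 24.6% of the members and in 28.9% of all genes. It was under 0.5 for 43 members, from 0.5 to 1 for 7, and above 1 for 7. These 7, HDAC4, HDAC5, HDAC9, KDM4B, KDM5B, SETD6 and SETD9, are 12.3% of the members, close to the 12.5% of all genes with an SD above 1. Both counts depend on how a gene's probe sets are combined: on the mean of all its sets, 17 members (29.8%, against 52.3% of all genes) were in no line above the mark, and 2 members, KDM5B and SETD6 (3.51%, against 8.84%), had an SD above 1. On the set with the highest SD, 14 members (24.6%, against 48.6%) were in no line above it. For 11 members the highest line was under 2 times the lowest. The shares of all genes that met this, or that exceeded the mark in all 16 lines, were not counted.

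**Figure D1:**
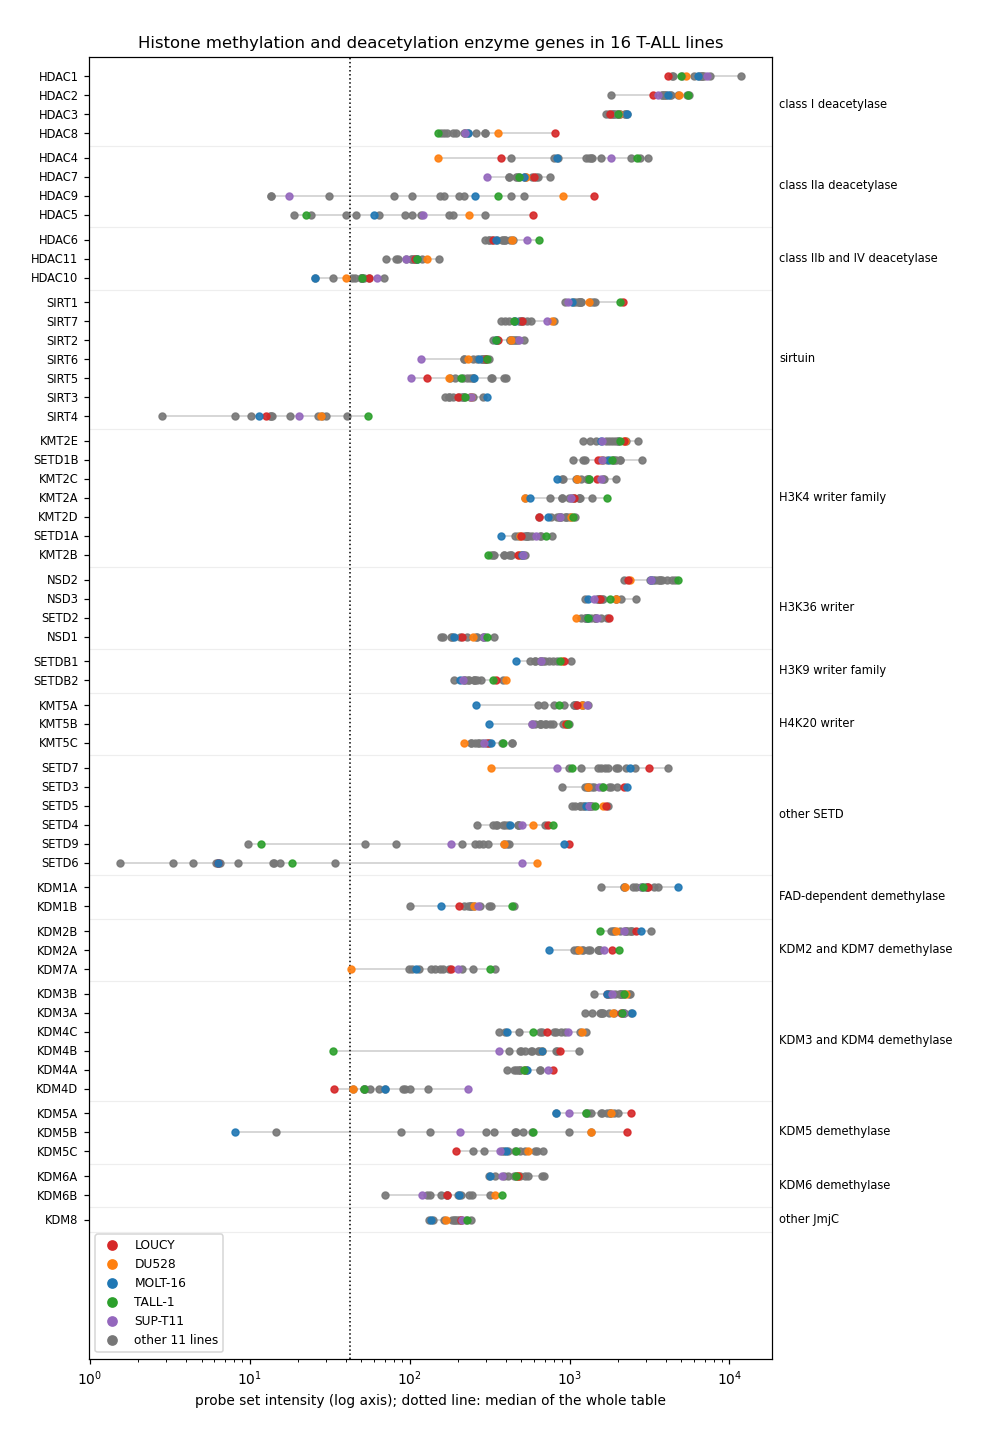
Intensity of the 57 members in each of the 16 lines (1 point per line, log axis), grouped by role, with 5 lines coloured and the table median of 42.4 as a dotted line. Most rows are narrow, while SETD6, SETD9, KDM5B, KDM4B, HDAC5 and HDAC9 have lines on both sides of the dotted line.

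A single line stood apart in few members. The lowest line lay at least 1 log2 unit below the next, with the next above the table median, in 4 of 50 members that could meet this rule: HDAC4 and SETD7 in DU528, KDM4B in TALL-1 and KMT5A in MOLT-16. That is 8% of the members that could meet it and 7.65% of all genes that could; on the mean of all probe sets it was 1, HDAC4, of 49 (2.04%, against 5.65%). On the high side, with the highest line above the mark of 169, it was 1 of 54, HDAC8 in LOUCY, or 1.85%, against 8.19% of all genes.

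Some members were read above the mark of 169 in several lines and below the table median in others. The promoter windows of 3 of them, SETD6, KDM5B and SETD9, picked after their values were seen, are shown to set the sequence at the start of such a gene beside its levels. Each window runs from 250 bases before to 50 bases after a RefSeq start site (GRCh38.p14), is printed 5′ to 3′ along the gene, and has every CpG in capitals, the dinucleotide at which vertebrate DNA is methylated. The SETD6 window lies at chr16:58515267-58515566 on the plus strand and holds 33 CpG. The KDM5B window lies at chr1:202808372-202808671 on the minus strand and holds 34. SETD9 has 4 windows in the table, of which the one farthest upstream, chr5:56909010-56909309 on the plus strand, holds 20.
SETD6: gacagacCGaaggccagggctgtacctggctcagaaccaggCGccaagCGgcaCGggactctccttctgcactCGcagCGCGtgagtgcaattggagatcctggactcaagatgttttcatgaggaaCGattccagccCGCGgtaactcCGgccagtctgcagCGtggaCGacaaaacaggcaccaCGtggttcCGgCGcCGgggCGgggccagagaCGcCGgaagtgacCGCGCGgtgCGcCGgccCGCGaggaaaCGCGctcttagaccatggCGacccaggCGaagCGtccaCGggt
KDM5B: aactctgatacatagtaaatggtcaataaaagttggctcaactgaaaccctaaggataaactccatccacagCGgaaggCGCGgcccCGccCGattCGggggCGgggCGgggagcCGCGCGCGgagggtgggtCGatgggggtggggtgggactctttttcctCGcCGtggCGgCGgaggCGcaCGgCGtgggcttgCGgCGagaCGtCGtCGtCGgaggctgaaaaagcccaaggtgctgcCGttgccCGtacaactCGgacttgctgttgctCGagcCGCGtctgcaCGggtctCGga
SETD9: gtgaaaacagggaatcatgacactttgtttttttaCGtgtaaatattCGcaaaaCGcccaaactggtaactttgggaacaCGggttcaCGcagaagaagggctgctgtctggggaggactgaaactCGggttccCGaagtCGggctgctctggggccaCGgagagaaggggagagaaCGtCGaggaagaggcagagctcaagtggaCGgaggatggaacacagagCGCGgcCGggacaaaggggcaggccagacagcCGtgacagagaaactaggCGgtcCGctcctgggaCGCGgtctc

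CpG-rich promoters were common to the enzymes. Windows were found for 53 of the 57 members, and 51 of them (96.2%) had a ratio of observed to expected CpG above 0.6, against 70.1% of 13455 protein-coding genes on the array. The median ratio was 0.91 in members and 0.79 in all these genes, and the median GC content 66.3% and 63.7%. At least 1 CpG was present in 98.6% of all the windows. The 2 members not above 0.6 were HDAC8 (0.50) and NSD1 (0.34). Of the members with an SD above 1, HDAC5 had no window. The others lay above 0.6, as nearly all members did: SETD6 (1.03), KDM5B (1.15), KDM4B (1.003), HDAC9 (1.11), HDAC4 (0.94) and SETD9 (0.87). The search counted the letters CG, which read the same on both strands, and DNA methylation was not measured here.

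Among the writers, the genes for H3K4 methyltransferases varied little. The SD of the 7 members of this family, the MLL-type genes KMT2A to KMT2E and the SET1 genes SETD1A and SETD1B, ran from 0.23 (KMT2D) to 0.47 (KMT2A). KMT2A, the MLL1 gene, lay between 525 (SUP-T13) and 1722 (TALL-1), with a median of 1030.5. DU528 (526), SUP-T13 and MOLT-16 (564) were its 3 low lines, and the next, JURKAT, reached 757. A further probe set of KMT2A, with a median of 858, ordered the lines almost alike (r = 0.978 with the chosen one over 16 lines), from 398 in SUP-T13 to 1446 in TALL-1. KMT2D, which with KMT2C primes enhancers, stayed between 643 (CCRF-CEM) and 1086 (JURKAT), with a median of 883. KMT2C ran from 837 (MOLT-16) to 1954 (ALL-SIL). Every line thus read both enhancer genes well above the mark of 169. KMT2B ran from 308 (TALL-1) to 527 (KOPT-K1). KMT2E, which keeps a SET domain without clear enzyme activity, ran from 1212 (JURKAT) to 2665 (ALL-SIL). PF-382 was the highest line for both SET1 genes: SETD1A ran from 374 (MOLT-16) to 778 (PF-382), and SETD1B from 1044 (JURKAT) to 2836 (PF-382).

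The H3K36 writers had SDs from 0.18 to 0.33. SETD2, the enzyme that trimethylates H3K36 behind elongating polymerase, lay between 1104 (DU528) and 1766 (LOUCY), with a median of 1331, an SD of 0.18. NSD2, which dimethylates H3K36 and is mutated to a hyperactive form in some childhood leukemias, split the lines: PEER (2205), LOUCY (2325) and DU528 (2405) were low, and the other 13 lay between 3165 (JURKAT) and 4733 (TALL-1). On a second NSD2 probe set the same 3 lines were the lowest, LOUCY at 1174, DU528 at 1415 and PEER at 1428, but JURKAT was close at 1481 (r = 0.843). On each of 4 dimmer sets PEER was among the 2 lowest lines, while DU528 was among the 3 lowest on 1 of them (211) and not on the other 3 (599, 342 and 372). PEER was also the lowest line for the paralog NSD1, which ran from 157 (PEER) to 338 (PF-382), and LOUCY read 213 and DU528 248 there. NSD3 ran from 1250.5 (JURKAT) to 2608 (ALL-SIL), and DU528, at 1947, was in its upper part.

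Both H3K9 writers of the SETDB family were present in all lines. SETDB1, which silences endogenous retroviruses together with KAP1, lay between 465 (MOLT-16) and 1018 (ALL-SIL), with a median of 691. SETDB2 ran from 189.8 (JURKAT) to 403 (DU528). MOLT-16 was among the 2 lowest lines for both, and LOUCY and DU528 among the 3 highest for both. The other SETDB1 probe set ordered the lines differently (r = 0.208): LOUCY read 256 and DU528 282, below its median of 298, MOLT-16 read 269, and TALL-1 was highest at 484.

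Of the H4K20 enzymes, KMT5A, the monomethylase needed for cell cycle progression, read 261 in MOLT-16 and from 633 to 1301 in the other 15 lines. Its other 3 probe sets did not show this gap: MOLT-16 read 565, 470.2 and 356 on them, within the range of the other lines. KMT5B and KMT5C add further methyl groups to H4K20. KMT5C ran from 219 (DU528) to 439.8 (PF-382). KMT5B ran from 316 (MOLT-16) to 986 (HSB-2) and also differed by probe set: 1671 was read in LOUCY on a second one, with the other lines at 895 (PEER) or below, where the chosen set gave LOUCY 952 and HSB-2 986.

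The remaining SETD genes held the widest spread among the writers. SETD6, a lysine methyltransferase known to act on the NF-kappa-B subunit RelA, read 628 in DU528 and 506 in SUP-T11. In the other 14 lines it lay between 1.55 (JURKAT) and 34.2 (PF-382), all below the table median. Its second probe set gave 565 and 374 in the same 2 lines and at most 16.1 elsewhere (r = 0.974). SETD6 thus stood out in DU528 and SUP-T11 on every probe set that names it. The genes beside it did not: CNOT1 read 3258 in DU528 and 3353 in SUP-T11 within a range of 2643 to 4408, and NDRG4 was at or below 70.7 in every line.

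SETD9, a SET-domain gene of little described function, read 9.83 in P12-ICHIKAWA and 11.7 in TALL-1, below the table median, then 52.7 in HSB-2 and 82.5 in ALL-SIL. The other 12 lines ran from 182 (SUP-T11) to 919 (MOLT-16) and 993 (LOUCY). On its second probe set the spread was smaller (r = 0.618): LOUCY (187) and MOLT-16 (189) were again the highest and TALL-1 (57.2) again low, but P12-ICHIKAWA read 108, so its low value rests on 1 probe set.

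The genes on either side of SETD9 in the RefSeq annotation also varied. MIER3, a corepressor gene that binds class I deacetylases, was at 3.07 in TALL-1 and between 447 and 1087 in the other 15 lines, P12-ICHIKAWA included (479). MAP3K1, a kinase gene on the other side, was lowest in ALL-SIL (34.2) and TALL-1 (173) and highest in MOLT-16 (2807) and LOUCY (1934), the lines that were also highest for SETD9. GPBP1, the gene past MIER3, stayed between 1697 and 2656, with TALL-1 at 2099. TALL-1 was thus low for SETD9 and both direct neighbours and not for GPBP1; whether DNA of the region differs between lines was not tested.

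**Figure D2:**
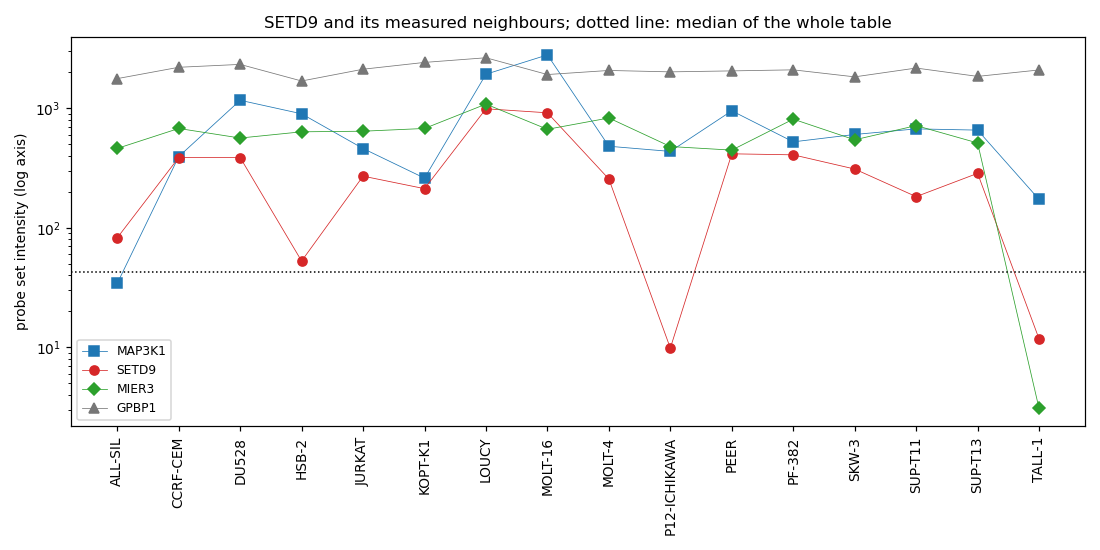
Intensity (log axis) of SETD9 and its measured neighbours MAP3K1, MIER3 and GPBP1 in each of the 16 lines, with the table median as a dotted line. TALL-1 falls for SETD9 and MIER3, P12-ICHIKAWA for SETD9 alone of the 4, and GPBP1 stays level.

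SETD7, which monomethylates H3K4 and many other proteins, lay between 325 (DU528) and 4113 (ALL-SIL), with a median of 1704. DU528 was apart from the next line, SUP-T11 (840.3), and LOUCY (3122) was the second highest. A dimmer second probe set was low in DU528 as well (10.3), but also in TALL-1 (12.7), with the other lines up to 93.2 (r = 0.841). The other 3 SETD genes were read in every line. SETD3 ran from 894 (P12-ICHIKAWA) to 2283 (MOLT-16). SETD5, associated with intellectual disability, ran from 1039 (P12-ICHIKAWA) to 1731 (ALL-SIL). SETD4 ran from 262 (SKW-3) to 786 (TALL-1). A second SETD4 probe set put TALL-1 at 689, above a next highest of 284 in ALL-SIL.

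**Figure D3:**
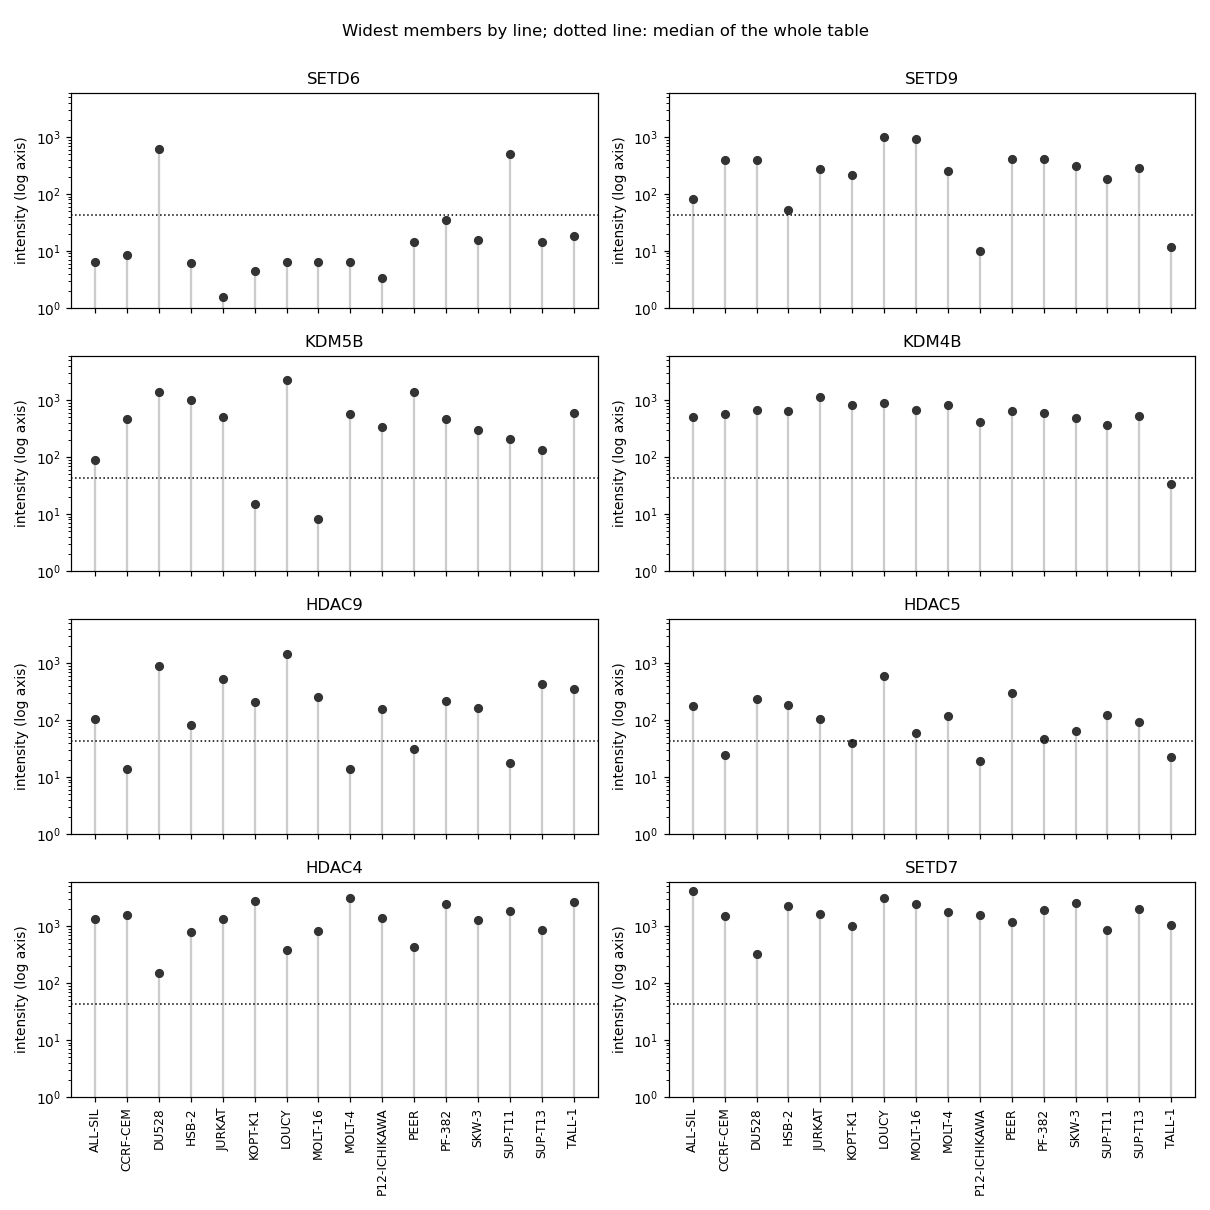
Intensity (log axis) by line of the 7 members with an SD above 1 and of SETD7, with the table median as a dotted line. SETD6 rises in DU528 and SUP-T11, KDM4B falls in TALL-1, KDM5B falls in KOPT-K1 and MOLT-16, and HDAC4 is lowest in DU528, LOUCY and PEER.

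Among the demethylases, KDM5B had the largest spread of all 57 members, an SD of 1.86. KDM5B removes H3K4 methylation at promoters and enhancers. It read 8.11 in MOLT-16 and 14.7 in KOPT-K1, both below the table median. ALL-SIL (87.9) and SUP-T13 (135) followed, and it reached 1359.8 in DU528, 1369.9 in PEER and 2278 in LOUCY. On 2 further probe sets the order was nearly the same (r = 0.993 and 0.982), with KOPT-K1 at 8.74 and 13.8 and MOLT-16 at 13.4 and 29.4. The other 2 probe sets of KDM5B were at or below 87.2 in all lines. Its neighbour RABIF ran from 489 to 1222, with 691 in KOPT-K1 and 634 in MOLT-16.

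The paralogs of KDM5B were read in every line. KDM5A, first known as a partner of the retinoblastoma protein, lay between 820.0 (MOLT-16) and 2427 (LOUCY), with a median of 1591, and P12-ICHIKAWA (826) was next to MOLT-16 at the low end. KDM5C, an X-linked gene, lay between 195 (LOUCY) and 681 (SUP-T13), with a median of 433, so LOUCY was the lowest line for KDM5C and the highest for KDM5A and KDM5B. MOLT-16 was lowest for KDM5A on 3 further probe sets (128, 21.5 and 266), and on the remaining one it read 214, beside 209 in SUP-T11, the lowest line.

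The Jumonji enzymes acting on H3K9 and H3K36 held the other wide demethylase. KDM4B, which removes H3K9 trimethylation, read 33.1 in TALL-1 and between 362 (SUP-T11) and 1153 (JURKAT) elsewhere. A second probe set was also lowest in TALL-1, at 56.2 against at least 129.8 in the other lines (r = 0.951). A further probe set went the other way: TALL-1 was its highest line at 969, with the next highest, LOUCY, at 458 (r = -0.444). TALL-1 was therefore low or high for KDM4B depending on the probe set, and which transcripts each one reads was not tested.

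The other KDM3 and KDM4 genes spread less. KDM3A, a hypoxia-induced H3K9 demethylase, ran from 1252 (P12-ICHIKAWA) to 2455 (MOLT-16). KDM3B ran from 1426 (JURKAT) to 2391 (PEER). KDM4A ran from 405 (SKW-3) to 794 (LOUCY). For these 3 the highest line was under 2 times the lowest. KDM4C, which is amplified in some lymphomas, ran from 364 (CCRF-CEM) to 1275 (PEER), with CCRF-CEM, P12-ICHIKAWA (397) and MOLT-16 (407) at the low end. KDM4D exceeded the mark of 169 in SUP-T11 alone (232), where the next line, PF-382, read 131. Its second probe set had the same 2 lines at the top, at 152 and 99.1.

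**Figure D4:**
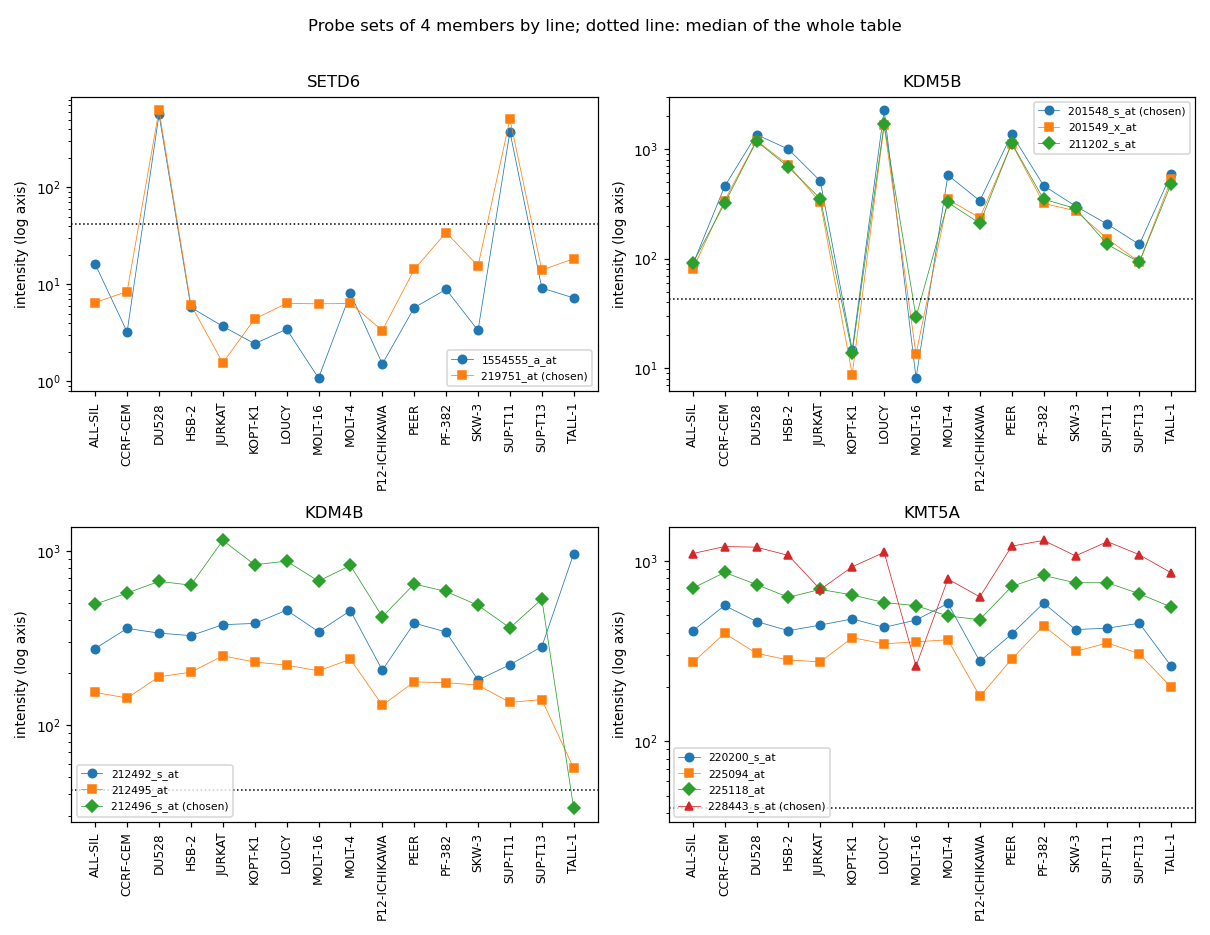
Intensity (log axis) by line on both probe sets of SETD6, on the 3 brightest of KDM5B, on 3 of KDM4B and on all 4 of KMT5A, with the table median as a dotted line. The sets overlay for SETD6 and KDM5B, cross at TALL-1 for KDM4B, and part at MOLT-16 for KMT5A.

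KDM6A and KDM6B erase H3K27 methylation, the mark written by EZH2, and KDM6A is a tumour suppressor gene in T-ALL. KDM6A lay between 312 (JURKAT) and 696 (CCRF-CEM), with a median of 461, within an SD of 0.32. KDM6B, which is induced by signalling, lay between 69.7 (ALL-SIL) and 379.9 (TALL-1), with a median of 186, and DU528 (339.6) and JURKAT (316) were near its upper end. No line fell below the table median for either gene.

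The remaining demethylase genes had no line set apart. KDM1A (LSD1), the flavin-dependent eraser of the CoREST complex, ran from 1572 (SUP-T13) to 4733 (MOLT-16). Its paralog KDM1B ran from 101 (CCRF-CEM) to 449.6 (JURKAT). MOLT-16, the highest line for KDM1A, was the second lowest for KDM1B (157). KDM2A, which binds unmethylated CpG DNA, ran from 745 (MOLT-16) to 2037 (TALL-1). KDM2B, which recruits a polycomb complex to CpG islands, ran from 1542 (TALL-1) to 3228 (HSB-2). TALL-1 was thus highest for KDM2A and lowest for KDM2B. KDM7A ran from 43.1 (DU528) to 341 (MOLT-4), and the line after DU528, P12-ICHIKAWA, read 99.8. KDM8 (JMJD5) ran from 132 (KOPT-K1) to 241 (PF-382).

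Class I deacetylase genes were read above the table median in every line and differed in spread, with SDs up to 0.56 (HDAC8). HDAC3, the catalytic subunit of the NCoR complexes, had the smallest spread of all members, between 1678 (ALL-SIL) and 2291 (PF-382), with a median of 2016, an SD of 0.14. HDAC1 lay between 4146 (LOUCY) and 11827 (HSB-2), with a median of 6373; after HSB-2 the next line, P12-ICHIKAWA, read 7576. HDAC2 lay between 1808 (PEER) and 5570.4 (P12-ICHIKAWA), with a median of 4067, and the next line above PEER was LOUCY at 3336. HDAC1 and HDAC2 are paralogs that share the Sin3, NuRD and CoREST complexes, and PEER and LOUCY were the 2 lowest lines for both.

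HDAC8, an X-linked class I enzyme that deacetylates cohesin, read 808 in LOUCY and 355 in DU528, and from 149.7 (TALL-1) to 295 (PEER) in the other 14 lines. A second probe set gave 615 in LOUCY, 255 in SUP-T13 and at most 181 (DU528) elsewhere (r = 0.909). On the remaining set, LOUCY was still the highest line but within reach of the others, at 319.7 against 291 in P12-ICHIKAWA (r = 0.454).

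Class IIa deacetylases hold MEF2 transcription factors silent and leave the nucleus when phosphorylated, and 3 of the 4 genes were among the 7 wide members. HDAC9 read 1423 in LOUCY and 905 in DU528, then 520.3 in JURKAT and 431 in SUP-T13. It was below the table median in CCRF-CEM (13.7), MOLT-4 (13.7), SUP-T11 (17.6) and PEER (31.5), and the 8 other lines lay from 80.3 to 357. A dimmer probe set had the same 2 lines on top, LOUCY at 287 and DU528 at 104 (r = 0.817).

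HDAC5 was highest in LOUCY (595), PEER (298) and DU528 (235) and lowest in P12-ICHIKAWA (19.1), TALL-1 (22.4) and CCRF-CEM (24.2), with a median of 99.0. Its second probe set stayed between 27.3 and 65.5 and did not order the lines alike (r = 0.0368), so the pattern of HDAC5 rests on 1 probe set. HDAC4 ran the opposite way: it was lowest in DU528 (151), LOUCY (375) and PEER (432) and highest in MOLT-4 (3076), KOPT-K1 (2769) and TALL-1 (2629). A second HDAC4 probe set gave 18.6, 87.3 and 168 in the same 3 low lines and up to 930.1 in TALL-1 (r = 0.976). HDAC7, the class IIa gene known for its role in thymocytes, ran from 306 (SUP-T11) to 758 (KOPT-K1).

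HDAC6, a cytoplasmic deacetylase of tubulin, ran from 298 (KOPT-K1) to 644 (TALL-1). HDAC10, which acts on polyamines, ran from 25.6 (ALL-SIL) to 69.2 (SUP-T13). HDAC11, the class IV enzyme, ran from 71.7 (ALL-SIL) to 153 (HSB-2). The last 2 did not reach the mark of 169 in any line.

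Spread among the sirtuins was small, with an SD of 0.49 (SIRT4) at most. SIRT1, the nuclear sirtuin that deacetylates p53, lay between 936 (MOLT-4) and 2155 (LOUCY), with a median of 1168. After LOUCY, TALL-1 (2071) was the only line above 1449, the value of HSB-2. SIRT2, mainly cytoplasmic, ran from 335 (P12-ICHIKAWA) to 521 (KOPT-K1). Of the mitochondrial sirtuins, SIRT3 ran from 167 (ALL-SIL) to 303 (MOLT-16). SIRT5, which removes succinyl groups, ran from 103 (SUP-T11) to 403 (P12-ICHIKAWA). SIRT4 was at most 54.7 (TALL-1), and below the table median in the other 15 lines. SUP-T11 was low for SIRT5 and SIRT6. SIRT6, which acts on H3K9 acetylation at telomeres, ran from 118 (SUP-T11) to 314 (SUP-T13), and SUP-T11 was also its lowest line on a second probe set (106; the next 166, LOUCY). SIRT7, a nucleolar enzyme, ran from 371 (PEER) to 795 (KOPT-K1).

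Agreement between probe sets offers a reading that the choice of probe set did not use. Members had 180 probe sets in all, and 8 members had just 1. The 123 others, which belong to 49 members, correlated with the chosen set at a median r of 0.59 over the 16 lines. Most of these were dim: among the 48 with a median above the mark of 169 the median r was 0.82, 36 lay above 0.5 and 1, for KDM4B, lay below 0. Of these 48, 9 belonged to members with an SD above 0.5, and their median r was 0.59, with 5 above 0.5. The other 39 had a median r of 0.83, with 31 above 0.5. All probe sets of a line share its array, so these values are descriptions.

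Lines differed in how many members they topped. LOUCY was the highest line for 9 of the 55 members that passed a filter on low values (at least 3 lines above the table median; SETD6 and SIRT4 did not pass), which is 16.4%, against 10.3% of all 13293 genes that passed. They were HDAC5, HDAC8, HDAC9, KDM4A, KDM5A, KDM5B, SETD2, SETD9 and SIRT1. PF-382 was highest for 7 (12.7%, against 3.96% of all genes) and SKW-3 for 0, against 3.87% of all genes. MOLT-16 was lowest for 8 members (14.5%, against 11.2%), among them KDM2A, KDM5A, KMT2C, KMT5A, KMT5B, SETD1A and SETDB1, and its array also had the lowest median, 37.6, of a range up to 45.0. Some of these depended on the probe set: MOLT-16 was lowest on no other set of KMT5A or SETDB1. For KMT5B it read 619 on the second set, whose lowest line was SUP-T13 (321), and was lowest on the third (139). For KDM2A and KDM5A it was lowest on some other sets but not all. Across all pairs of these 55 members the median r was 0.032, against 0.005 over all genes.

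Whether members follow differences in cell state, or in RNA integrity, was asked with 4 measures per line. Each was fitted with limma to every gene above the filter, with Benjamini-Hochberg adjustment over all genes fitted and a threshold of 0.05. For a list of 20 proliferation genes, 0 of 55 members passed, as did 0% of all genes in either direction; 6 members had an unadjusted p below 0.05, and 9.60% of all genes did. The list varied little, with an SD of 0.15 between lines. For 11 measured genes of cortical thymocytes, 0 members passed, against 0.0753% of all genes higher and 0.128% lower with it, and 9 (16.4%) had an unadjusted p below 0.05, against 13.4% of all genes. The members nearest to the threshold were HDAC5, lower with the list (slope −0.44 ± 0.11 SE, limma adjusted p = 0.106), and HDAC4, higher with it (0.41 ± 0.11, adjusted p = 0.131).

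For 12 measured genes of immature progenitors, such as LYL1, MEF2C and KIT, 2 of 55 members passed: HDAC8 was higher and HDAC4 lower with the list. Of all genes, 0.964% were called higher and 0.429% lower. An unadjusted p below 0.05 was reached by 9 members (16.4%) and 16.9% of all genes. HDAC4 fell by 0.64 (SE 0.11) log2 units per unit of the list value, with a limma adjusted p of 0.0141, and HDAC8 rose by 0.32 (SE 0.059), with 0.0173. HDAC5 had a slope of 0.55 (SE 0.15) and an adjusted p of 0.0787. KDM5B (slope 0.71, adjusted p = 0.181), NSD2 (−0.15, 0.108) and SETD9 (0.54, 0.241) did not pass.

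LOUCY (list value 2.98) and DU528 (3.19) lay at the upper end of the immature list, and the next line, HSB-2, at 1.28. Without DU528 the adjusted p of HDAC4 was 0.0907, and without LOUCY that of HDAC8 was 0.0737. With both lines left out, an alternative chosen after seeing the data, neither passed (0.511 and 0.416), and 0 genes of the whole table did. On probe sets whose names do not end in _x_at or _s_at, the endings for sets that may read several transcripts, the adjusted p was 0.0463 for HDAC4 and 0.586 for HDAC8. The same 2 lines carried the lowest ACTB ratios, the intensity of the 3′ control probe set over that of the 5′ one and a measure of RNA integrity: 1.44 in DU528 and 1.45 in LOUCY, of a range up to 2.03. With that ratio as a covariate the adjusted p was 0.131 for HDAC4 and 0.126 for HDAC8.

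**Figure D5:**
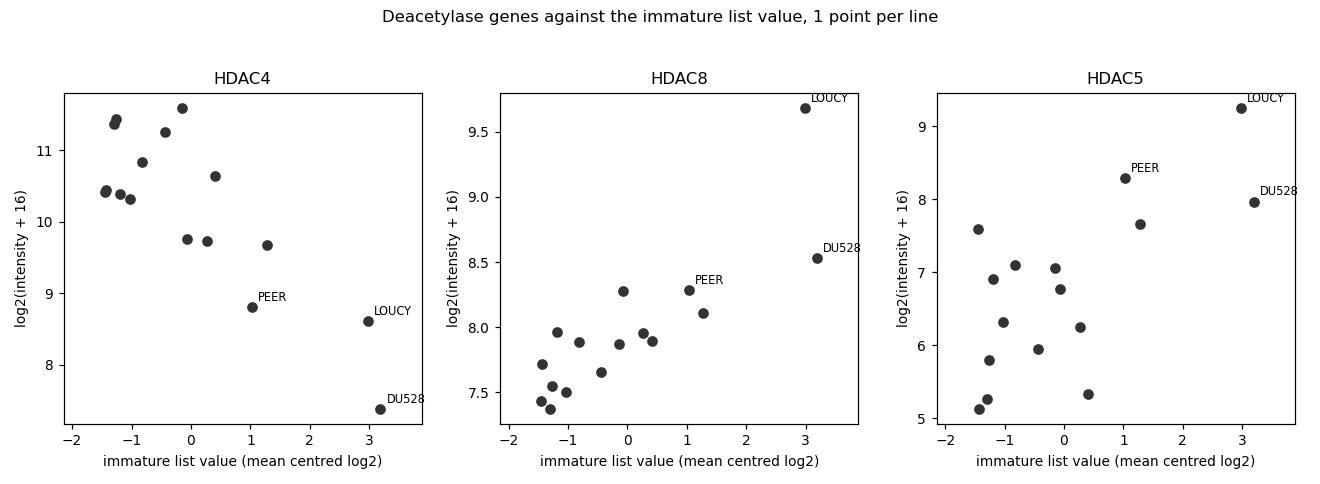
log2(intensity + 16) of HDAC4, HDAC8 and HDAC5 against the immature list value (mean of centred log2 values of 12 genes), 1 point per line. LOUCY and DU528 lie to the right of all other lines, at the bottom for HDAC4 and at the top for HDAC8.

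The ACTB ratio itself, fitted alone, called 0 of 55 members, against 0.0903% of all genes higher and 0.406% lower, with 10 members (18.2%) and 14.3% of all genes at an unadjusted p below 0.05. HDAC4 had the smallest adjusted p among them, 0.0963, and a slope of 4.97 (SE 1.30) per unit of log2 ratio. Across lines the ratio moved with the cortical list (r = 0.63) and against the immature list (r = −0.56), values given as descriptions.

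Pairs of paralogs, partners in a complex, and writers with erasers of a mark were compared in 24 planned relations, which gave 25 tests. In 4 relations a gap separated the lines into sets. The relations of NSD2 were tested over 13 lines only, without PEER, LOUCY and DU528, and SIRT1 with SIRT2 in both of its sets. By Pearson's r, 0 of the 25 passed an adjusted p of 0.05 and 3 had an unadjusted permutation p below 0.05. HDAC4 and HDAC5 had r = −0.68 over 16 lines (permutation p = 0.00387, adjusted 0.0559; Spearman's rho −0.64, p = 0.00927, adjusted 0.0772), and −0.55 without DU528 and LOUCY. Left out in turn, ALL-SIL and MOLT-4 each brought its adjusted p below the threshold (0.0422 and 0.0302). The pattern of HDAC5 rests on 1 probe set. On the ACTB ratio the 2 genes had opposite slopes, 4.97 for HDAC4 and −3.69 for HDAC5 (limma adjusted p = 0.0963 and 0.309). SETDB1 and SETDB2 had r = 0.57 (p = 0.0199, adjusted 0.166; rho 0.60, p = 0.0166, adjusted 0.104), with 0.65 without ALL-SIL and MOLT-16 and an adjusted p of 0.0481 without ALL-SIL alone. Over their 13 lines, NSD2 and NSD3 had r = 0.53 (permutation p = 0.0628, adjusted 0.321) and rho = 0.71 (permutation p = 0.00814, adjusted 0.0772).

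SIRT2 separated 6 lines between 335 and 358 from 10 between 425 and 521. Within the 10, a set separated by SIRT2's own values, SIRT1 and SIRT2 had r = −0.80 (permutation p = 0.00447, adjusted 0.0559) and rho = −0.89 (p = 0.00114, adjusted 0.0285). Without JURKAT and SUP-T11, r was −0.78. Within the 6, r was 0.36 (exact permutation p = 0.506; rho 0.31, exact p = 0.564). By Spearman's rho the set of 10 gave the 1 test of 25 that passed, and by Pearson's r it did not pass. The other SIRT2 probe set, with a median of 83.5, had r = 0.466 with the chosen one. HDAC1 and HDAC2 (r = 0.31, p = 0.216), KDM5A and KDM5B (0.47, p = 0.0642) and KDM6A and EZH2 (−0.035, p = 0.861) were among those that did not pass by either measure; their rho values were 0.27 (p = 0.308), 0.44 (p = 0.0881) and −0.02 (p = 0.943).

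Of 30 measured subunits of the COMPASS, CoREST, NCoR, Sin3 and NuRD complexes and related proteins, 29 exceeded the mark of 169 in all 16 lines. An SD above 1, reached by 12.5% of all genes, was reached by 1. That was PSIP1, the LEDGF gene that tethers KMT2A complexes to chromatin, at 397 in MOLT-16 and from 2799.6 to 8984 elsewhere. MEF2D, one of the MEF2 factors that class IIa deacetylases bind, was also lowest in MOLT-16 (172) and highest in SUP-T13 (1139). MTA3, a NuRD subunit, was called higher with the cortical thymocyte list (slope 0.30, limma adjusted p = 0.0484). With the ACTB ratio as a covariate, no gene was called with that list. In the 4 fits, 0 other subunits were called.

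Other writers and erasers, such as the polycomb, arginine methyltransferase and acetyltransferase genes, were measured for 31 of 32 listed, and 27 exceeded the mark in every line. EZH2, the H3K27 methyltransferase, read 12.2 in LOUCY and from 1577 to 3768 in the other 15 lines. PRMT7 read 3640.4 in TALL-1, 2489 in ALL-SIL and as little as 175 in MOLT-16. KAT6A, an acetyltransferase gene rearranged in myeloid leukemia, read 188 in MOLT-16 and at least 1392 elsewhere. None of the 31 was called in the 4 fits, and the smallest limma adjusted p was 0.0864.

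The lines carried T-cell markers. CD3D lay from 7095 (MOLT-16) to 14179 (CCRF-CEM), and of 7 measured T-lineage genes 5 exceeded the mark in every line; CD3E was at 31.1 in MOLT-16. Markers of other cell types were low in most lines. The mark was never exceeded by 3 of 5 stromal markers and 2 of 4 of red cells or platelets. Nor was it by 3 of 5 of B cells and 4 of 6 of myeloid cells. SPI1, CD14, MPO, MS4A1 and PAX5 stayed near or below the table median in all lines. Others did exceed the mark, among them SPARC in 7 lines, CD79B in 4 (LOUCY highest, at 1152) and LYZ in DU528 alone (385). The summed myeloid intensity was highest in DU528 (2118, of which CEBPA 1669; lowest line 93.7), and LOUCY had the highest stromal (2777; lowest 148), B-cell (2235; lowest 169) and red cell and platelet sums (781; lowest 104), with EBF1 at 865 and SPARC at 2592. DU528 and LOUCY, the lines with the highest of these sums, lie at the upper end of the immature list. The B-cell sum, however, was lowest in DU528. The part of these sums in the slopes of HDAC4 and HDAC8 was not tested.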

How the data were processed

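Each of 16 lines was measured on 1 array. The authors deposited 54675 probe set intensity values per array on a linear scale, from 0.6 to 24485; their summarisation and scaling were not given in the sources used here. They were not normalized again; array medians spanned 37.6 to 45.0. The number of arrays limits the precision.

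Analysis was on log2(intensity + 16). There were 41037 probe sets that matched 1 gene of the annotation, and each of 19735 genes was read by the set with the highest mean among those naming only that gene. Members and lists were chosen with earlier results of these data known. All members may be named, of each other list at most the 6 genes with the largest range. The defining markers CD3D, CD3E, SPI1, CD14, MPO, MS4A1 and PAX5, some genes of the immature list and neighbouring genes were named outside that rule.

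Fits used limma 3.58.1 (trend and robust eBayes) in R 4.3.3 on genes above the table median in at least 3 lines. Adjustment was by Benjamini-Hochberg over all genes. The p-values measure the spread between lines. Relations had two-sided permutation tests with 100000 resamples, or all orders for the 6-line set. Both were tested on simulated data. Other steps used Python 3.11.15, pandas 2.3.3 and scipy 1.17.1. Alternatives changed the pseudocount, the normalization, the probe set, the filter, the thresholds and the lines included, and added the ACTB ratio as a covariate. Promoter windows came from RefSeq GRCh38.p14. Of 57 members, 4 had no window.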

Additional observations from a re-analysis of the deposited data

How the results depend on the processing

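Members with an SD above 1 numbered 14 at a threshold of 0.5 (24.6%, against 28.9% of all genes). They numbered 2 (KDM5B and SETD6) on the mean of all probe sets (3.51%, against 8.84%). Members never above 4 times the median numbered 17 on that mean (29.8%, against 52.3%) and 14 on the probe set with the highest SD (24.6%, against 48.6%). Without _x_at and _s_at sets, where 47 members remain, they numbered 8 (17.0%, against 51.7%). With a gap of 2 log2 units, lines set apart low numbered 1 (KDM4B), or 2.0%, against 2.77% of all genes that could. On the mean they numbered 1 (HDAC4), or 2.04%, against 5.65%. Lines set apart high numbered 0 with the gap of 2, against 2.53% of all genes that could. With the highest SD they numbered 2 (HDAC8 and SETD4), or 4.65%, against 10.6%. The cause of these moves was not tested.

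Members following the immature list numbered 1 without _x_at and _s_at sets, 0 with the ACTB ratio as a covariate and 0 without LOUCY and DU528, and from 1 to 3 with 1 line left out. HDAC5 joined with a pseudocount of 64 (adjusted p = 0.0397) and without ALL-SIL (0.0428). Planned relations passing by Pearson's r numbered 2 without _x_at and _s_at sets (HDAC4 with HDAC5, NSD2 with NSD3) and 0 to 3 with 1 line left out. Of 72 alternatives to the counts of members, 59 stayed within 1.5 times and 13 moved. The 59 include counts of 0 that stayed 0, so they do not show how stable the other counts are. Among these are the proliferation list, the cortical list and the ACTB ratio, which 0 members followed under any alternative run.

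Counts over all genes moved more. The immature list called 72 without _x_at and _s_at sets, 7 with the covariate, 0 without LOUCY and DU528, and 58 to 244 with 1 line left out. The cortical list called 43 with quantile normalization, 9 with a pseudocount of 64, 10 without the filter, 5 without _x_at and _s_at sets, 2 without LOUCY and DU528, 0 with the covariate, and 3 to 73 with 1 line left out. The proliferation list called 31 with quantile normalization, 2 without _x_at and _s_at sets, 1 on the mean of all sets, and 0 to 4 with 1 line left out. The ACTB ratio called 16 without _x_at and _s_at sets, 34 without the filter, and 0 to 95 with 1 line left out. No paired analysis was possible because the lines form 1 group. Signal near background limits HDAC10, SIRT4 and the low lines of SETD6, SETD9, KDM5B, HDAC5 and HDAC9.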
